A study of Mus musculus with 36 samples.

Results

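The lysyl oxidase family was followed here in single cells of the mouse left ventricle after ischemic injury. Its members are Lox, Loxl1, Loxl2 and Loxl3, 4 of the 20720 nuclear genes listed in the unique molecular identifier (UMI) count tables, and were found by symbol. Lysyl oxidases are secreted, copper-dependent enzymes that oxidise lysine residues of collagen and elastin. The aldehydes they form condense into the covalent cross-links that give scar tissue its stiffness and elastic fibres their recoil. Lox is made as a proenzyme that procollagen C-proteinase (Bmp1) cleaves, Loxl1 is known for its part in elastic fibre assembly, and Loxl2 and Loxl3 carry scavenger receptor cysteine-rich domains that Lox and Loxl1 lack.

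Male C57BL/6 mice aged 8 weeks were operated on, the infarcted part of the left ventricle was dissociated, and living cells were sorted by flow cytometry, 1 a well, into multi-well plates for SORT-seq, a method that counts the 3′ ends of polyadenylated RNA. In the ischemia-reperfusion groups the left anterior descending coronary artery was tied for 1 hour and then released, and hearts were collected at day 1 (IR day 1, 9 plates), day 3 (IR day 3, 7 plates) or day 14 (IR day 14, 3 plates). In the MI day 3 group (5 plates) the ligation was permanent and these plates carry their own surgery label, which names no sham group, so ligation type and anything else particular to these plates cannot be told apart. Sham-operated mice were sampled at day 1 (4 plates) and day 14 (8 plates), and none of the labels gives a sham sample of day 3, although the study's methods describe one, which was not analysed here. Which mouse a plate came from was not stated, nor how many mice the reperfusion groups held. The study's methods give the permanent ligation group fewer mice than it has plates here, so some of its plates share a mouse. Plates were still treated as independent and n counts plates, so p-values measure the spread between plates and may be too small.

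Of 13824 wells, 3146 held at least 1000 UMIs and were kept, and counts were summed over the kept wells of each plate. Those sums ranged from 17155 to 4150040 UMIs, and IR day 3 replicate 2 had no kept well. Replicates 2 and 7 of sham day 14 shared wells with matching counts and were counted as 1 plate. On replicates 3 and 4 of sham day 14 no well was named cardiomyocyte-like, and 87.0% of the wells of the first and all wells of the second stayed unnamed. Levels are given as CPM, counts scaled to 1000000 UMIs from nuclear genes. Fewer fibroblasts and less RNA per fibroblast cannot be told apart in sums over all cells.

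On the GRCm38 assembly, Loxl1 lies on chromosome 9 at 58287738 to 58313186 on the minus strand, Loxl2 on chromosome 14 at 69609068 to 69695834 on the plus strand, and Loxl3 on chromosome 6 at 83034173 to 83052562 on the plus strand. Lox lies on chromosome 18. The 3′ end of Loxl3, the part that SORT-seq reads, overlaps Htra2, a mitochondrial protease gene on the opposite strand at 83051266 to 83055273. Htra2 had 103 UMIs in fibroblast-like cells against 2939 of Loxl3. The strand setting of the counting was not given in the sources used here.

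Pooled over all groups, fibroblast-like cells held most UMIs of each member. Clusters were named from marker genes, and the family itself was kept out of the genes used for clustering. The 318 fibroblast-like cells were 10.3% of cells and held 29.3% of all UMIs. They held 96.4% of Lox (3049 of 3163 UMIs), 92.3% of Loxl1 (6905 of 7479), 85.6% of Loxl2 (6039 of 7059) and 92.2% of Loxl3 (2939 of 3186). Each member's pooled share was thus above the cells' share of total RNA. For Loxl2 the share moved with group. Fibroblast-like cells held 63 of its 144 UMIs at sham day 1, where unnamed cells held 43. They held 22 at sham day 14, where unnamed cells held 17. At IR day 14 they held 88 of 136 and at MI 5033 of 5696.

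Pooled over groups, Lox stood at 340 CPM in fibroblast-like cells (95% exact Poisson interval 328 to 352), against 16.4 CPM in unnamed, 12.5 in mural-like, 4.43 in cardiomyocyte-like, 4.15 in endothelial-like and 3.52 in macrophage-like cells. Loxl3 stood at 328 CPM (316 to 340) in fibroblast-like cells, against 34.0 in mural-like, 24.6 in unnamed, 12.1 in macrophage-like, 6.57 in endothelial-like and 2.88 in cardiomyocyte-like cells. In neutrophil-like cells Lox had 4 UMIs and Loxl3 5, and in the 12 erythrocyte-like cells they had 1 and 3. For Loxl1 the fibroblast-like level was 770 CPM (752 to 789), and the next level was 102 in mural-like cells, the contractile cells of vessel walls. Such intervals cover counting error only. Loxl2, the member with the smallest part of its UMIs in fibroblast-like cells, stood at 674 CPM (657 to 691) there, 218 in mural-like, 149 in unnamed, 85.2 in neutrophil-like and 60.2 in endothelial-like cells. Pooled levels weight the groups by their depth: MI gave 7023173 of the 8965763 fibroblast-like UMIs. The mural values rested on 21 cells, and a single MI cell of 426261 UMIs gave 128 of their 192 Loxl2 UMIs. That cell also gave 64 of their 90 Loxl1 and 22 of their 30 Loxl3 UMIs. The place of mural-like cells among the other classes is therefore not read as an order.

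**Figure D1:**
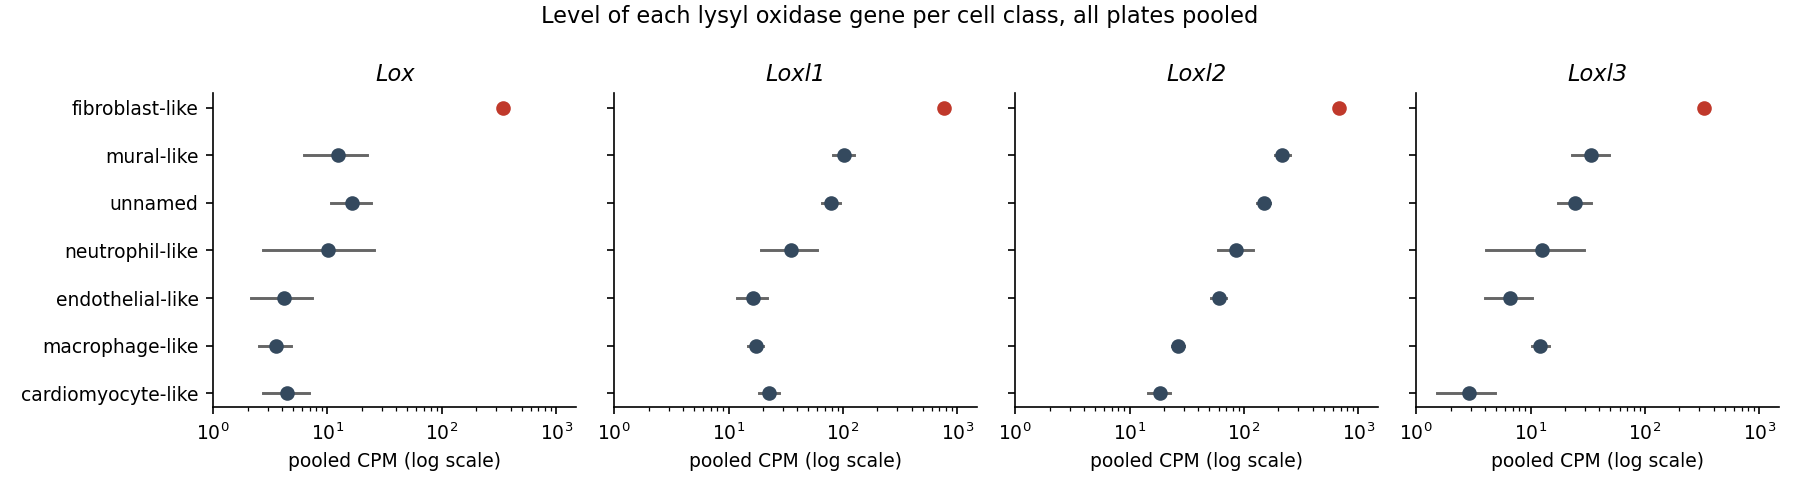
Pooled level of each member (CPM, log axis) by cell class, with 95% Poisson intervals for counting error. Fibroblast-like cells lie highest for all 4 members, from 328 CPM for Loxl3 to 770 for Loxl1, and Loxl2 has the highest endothelial-like level, 60.2 CPM.

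How often a member was seen in single fibroblast-like cells moved with depth as well as with group. In MI day 3 cells (median 45196 UMIs) Lox was detected in 119 of 132 cells, 90.2% (95% Clopper-Pearson interval 83.7 to 94.7), and Loxl3 in 121. At IR day 3, with a median of 2835 UMIs, Lox was detected in 37 of 76 cells and Loxl3 in 31, and at IR day 1, with a median of 11519, in 30 of 52 and 24. In sham cells Lox was detected in 2 of 24 at day 1 and 1 of 13 at day 14.

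After thinning every fibroblast-like cell to 1000 UMIs, Lox was seen in 25.9% of MI cells, in 12.3, 22.2 and 3.51% of cells at days 1, 3 and 14 of reperfusion, and in 0.449 and 0.691% of sham cells of days 1 and 14. Loxl3 was seen in 29.8, 7.63, 17.7, 14.0, 2.76 and 4.80% in the same order. Loxl1 was seen in 43.7 to 60.2% in every group. Cardiomyocyte-like cells held Lox in 17 of 1113 cells (median 2303 UMIs), 0.456% after thinning. Of the 17, 15 were of the IR day 3 group (281 cells, 1.57% thinned). Per 1000 UMIs of the fibroblast marker genes, Lox stood at 5.30 (3.09 to 8.48) in cardiomyocyte-like and 3.67 (3.10 to 4.30) in fibroblast-like cells of that group. Whether RNA of other cells gave these counts was not tested. In sham cardiomyocyte-like cells Lox was seen in 0 of 231 at day 1 and 0 of 207 at day 14. A floor of 3 cells with a UMI would be 1.30 and 1.45% of them, which is not an interval limit. Unthinned, the sham fibroblast-like shares were 8.33 and 7.69% at medians of 3850.5 and 4888 UMIs, and the cardiomyocyte-like medians were 2292 and 1985. In pooled counts Lox stood at 14.5 CPM (1.76 to 52.5) and 11.2 (0.283 to 62.3) in sham fibroblast-like cells of days 1 and 14, against 0 UMIs of 854314 and 634041 in the cardiomyocyte-like cells. The sham fibroblast-like values rest on 3 UMIs, and no order is read from them. UMIs of all 4 members were seen in 113 of 132 MI cells, in 14 of 52, 18 of 76 and 3 of 21 cells at days 1, 3 and 14 of reperfusion and in 1 cell of each sham group.

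Across all cells of a plate, Lox was the member that was nearly absent from sham tissue and present after injury. Lox, the founding enzyme of the family, was at 0 on 3 of 4 sham day 1 plates and at 2.81 CPM on the other. At sham day 14 its lowest, median and highest levels over 7 plates were 0, 0 and 10.9 CPM. At IR day 1 they were 17.7, 68.4 and 147 CPM over 9 plates, and at IR day 3 they were 0, 44.2 and 116 over 6 plates. The MI day 3 plates stood at 232, 113, 168, 98.7 and 188 CPM, and the IR day 14 plates at 4.96, 0 and 15.5 CPM. All IR day 1 and MI plates lay above all sham plates, 2 of 6 IR day 3 plates, at 0 and 9.52 CPM, lay within the sham range, and IR day 14 overlapped sham.

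Loxl3, one of the members with scavenger receptor domains, was likewise low in sham tissue, at 0, 2.37, 5.62 and 11.6 CPM at day 1 and at 0, 0 and 18.1 CPM (lowest, median, highest) at day 14. At IR day 1 it ranged from 1.87 to 78.8 CPM with a median of 16.3, and at IR day 3 from 0 to 84.0 with a median of 46.5. The MI plates stood at 156, 162, 219, 127 and 165 CPM, above every plate of the other groups. At IR day 14 its levels were 13.9, 7.06 and 29.8 CPM.

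Loxl1, the elastic fibre member, was already present in sham tissue at 70.9, 23.7, 131 and 113 CPM at day 1, and ranged from 0 to 119.6 at day 14. It ranged from 94.98 to 502 CPM at IR day 1, from 76.2 to 357 at IR day 3 and from 282 to 443 at MI day 3, and stood at 33.7, 37.6 and 224 at IR day 14. Loxl2, the other scavenger receptor member, stood at 44.3, 59.2, 75.9 and 130.1 CPM at sham day 1 and ranged from 19.2 to 96.3 at sham day 14. Its range was 41.4 to 295 CPM at IR day 1, 52.4 to 296 at IR day 3, 216 to 476 at MI day 3 and 31.7 to 110.1 at IR day 14. For both genes every MI plate lay above every sham plate, while the IR plates overlapped sham.

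**Figure D2:**
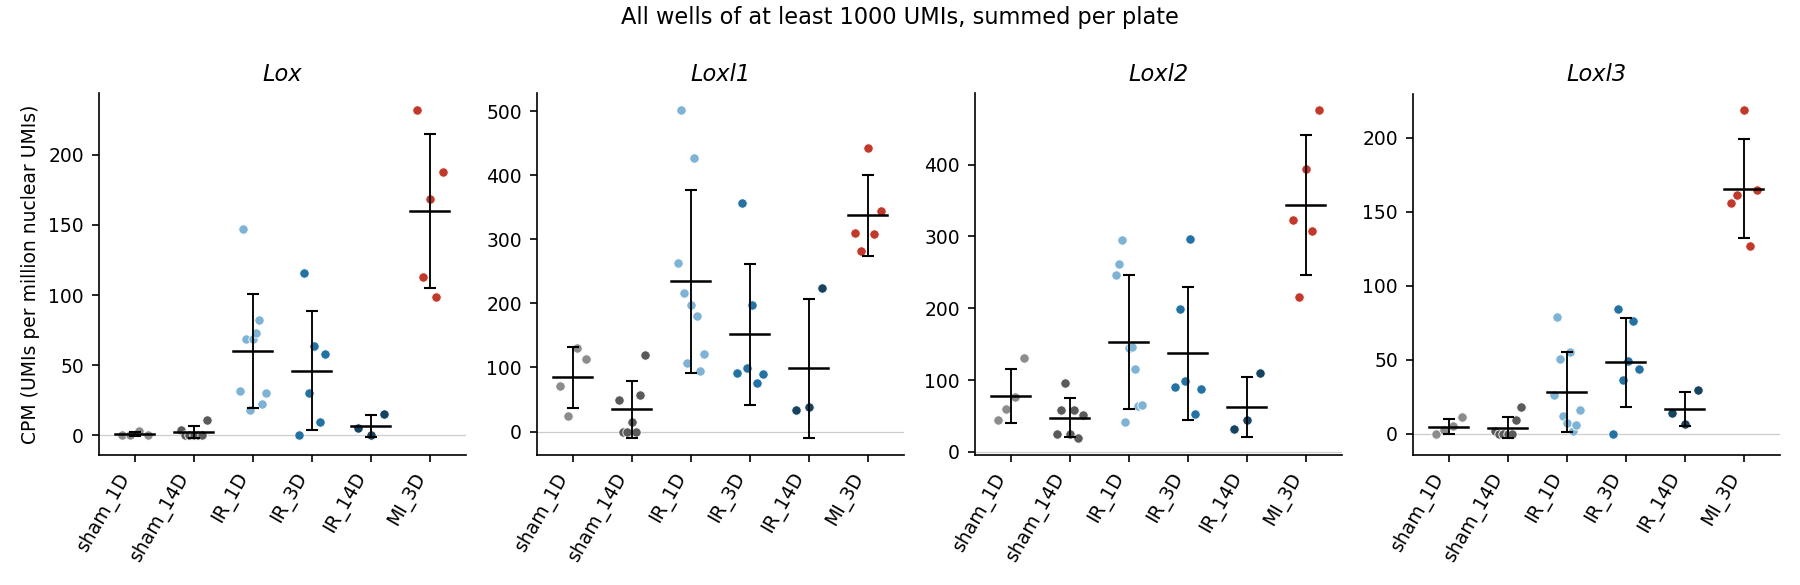
Level of each member in the sum over all kept wells (CPM) by group, with points for plates, a line for the mean and bars for the SD. Lox is near 0 on sham plates and spans 98.7 to 232 CPM on the 5 MI plates, whereas Loxl1 and Loxl2 are present on most sham plates.

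In the edgeR quasi-likelihood test at day 1, 2 members were higher after ischemia-reperfusion than in day 1 sham, where 19.7% of the 9328 genes tested were called higher. Lox differed by a log2 fold change of 5.49 (SE 0.874, adjusted p = 5.71e-06) and Loxl3 by 2.33 (SE 0.734, adjusted p = 0.0115). Only 2 Lox UMIs lay behind the sham level, and the ratio of pooled counts was 57.2 (exact 95% interval 15.6 to 476). Both of those UMIs came from sham day 1 replicate 3, and without that plate the fitted Lox value was 8.72. Loxl1 at 1.23 (adjusted p = 0.0655) and Loxl2 at 0.78 (adjusted p = 0.188) did not pass.

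Against both sham groups the same 2 members passed at IR day 3, with 18.2% of genes called higher. Lox differed by 4.29 (SE 0.680, adjusted p = 1.11e-05) and Loxl3 by 3.11 (SE 0.599, adjusted p = 1.47e-04) on the log2 scale. Their pooled count ratios were 18.2 (8.66 to 46.0) and 8.39 (5.03 to 14.99). Loxl1 and Loxl2, at 0.99 each, missed the threshold with adjusted p of 0.108 and 0.0776. Without the 2 sham day 14 plates that held no cardiomyocyte-like well, Loxl2 passed at 1.23 (adjusted p = 0.0213).

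At MI day 3 all 4 members were higher than in both sham groups, in a comparison that called 32.7% of genes higher. Lox differed by 5.98 (SE 0.576, adjusted p = 9.11e-11), Loxl3 by 4.74 (SE 0.515, adjusted p = 1.39e-09), Loxl2 by 2.28 (SE 0.405, adjusted p = 1.19e-05) and Loxl1 by 2.14 (SE 0.448, adjusted p = 1.18e-04). The pooled count ratio was 74.2 (35.9 to 185) for Lox and 33.5 (20.6 to 58.8) for Loxl3. On MI plates 10.2 to 20.1% of UMIs were mitochondrial and 1.56 to 3.81% came from the ribosomal RNA gene Rn45s, against 64.4 to 71.5% and 14.5 to 19.4% at sham day 1. The mitochondrial share was 69.8 to 75.1% on 5 sham day 14 plates and 3.85 and 5.70% on the 2 without cardiomyocyte-like wells. With Rn45s left out, the 4 members still passed, and the part of the mitochondrial share in the differences was not tested. Without sham day 1 replicate 3 the fitted Lox value was 5.91 at IR day 3 and 7.59 at MI. The shares of genes called lower were 16.9% at IR day 1, 11.4% at IR day 3 and 23.4% at MI, and no member was among them. These tests, those at IR day 3 and those below in fibroblast-like cells share their sham plates.

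At IR day 14 none of the 4 members differed from day 14 sham, and 0.0214% of genes, 2 of 9328, were called higher. Lox stood at a log2 fold change of 1.08 (SE 1.06, adjusted p = 0.843), Loxl1 at 1.17, Loxl2 at 0.59 and Loxl3 at 1.78 (SE 0.904, adjusted p = 0.6997). At an unadjusted p under 0.05, 671 genes were found, and DESeq2 called 48 genes but gave no adjusted p for the members. IR day 14 replicate 3 held the highest level of every member.

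Between permanent ligation and reperfusion at day 3, Lox, Loxl2 and Loxl3 were higher at MI, where 7.73% of genes were called higher and 9.79% lower. The log2 fold change was 1.68 for Lox (SE 0.441, adjusted p = 0.00588), 1.62 for Loxl3 (SE 0.454, adjusted p = 0.0103) and 1.30 for Loxl2 (SE 0.449, adjusted p = 0.0395). Loxl1 at 1.15 (adjusted p = 0.117) did not pass, and passed without IR day 3 replicate 3 (1.51, adjusted p = 0.0387). The Loxl2 call was lost with relative log expression (RLE) scaling in place of the trimmed mean of M-values (adjusted p = 0.0705), in DESeq2 (adjusted p = 0.103) and without any 1 of replicates 1, 4, 6 and 7 of IR day 3 or 1, 3, 4 and 5 of MI, and DESeq2 gave Loxl3 an adjusted p of 0.0504. Fibroblast-like cells held 40.8% of UMIs in the MI group, against 27.7, 12.6 and 7.74% at days 1, 3 and 14 of reperfusion and 7.12 and 6.88% in the sham groups of days 1 and 14. The part of these shares in the all-cell differences was not tested, and the levels within fibroblast-like cells follow.

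Within fibroblast-like cells, Lox was higher on the plates of IR day 1, IR day 3 and MI than on those of sham. The 3 sham day 1 plates with at least 5 such cells stood at 0, 28.5 and 0 CPM and the sham day 14 plate at 19.6, from 3 UMIs in all. The 5 IR day 1 plates stood at 258, 211, 152, 232 and 147 CPM, the 4 IR day 3 plates at 204, 241, 224 and 402, and the 5 MI plates at 550.4, 301, 328, 326 and 359. The 2 IR day 14 plates stood at 78.6 and 78.0 CPM. Every plate of the injured groups lay above every sham plate, and the IR day 14 plates lay below every plate of days 1 and 3. The IR day 14 plates rest on 3 and 10 Lox UMIs. The sham plates at 0 held 31571 and 27506 UMIs of all genes, too few to show a level near that of IR day 14 reliably. No order of IR day 14 and sham is read from these plates.

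Loxl3 plates overlapped sham at IR day 1 and no longer at IR day 3 in fibroblast-like cells. Its sham plates stood at 0, 28.5, 72.7 and 98.0 CPM, and the IR day 1 plates at 176, 22.2, 109, 5.53 and 67.7 overlapped them. The IR day 3 plates stood at 163, 221, 174 and 268 CPM, the IR day 14 plates at 209.6 and 133 and the MI plates at 365, 422, 410.0, 393 and 307. All IR day 3, IR day 14 and MI plates lay above all sham plates, and the MI plates above all others.

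Loxl1 did not separate the groups in fibroblast-like cells. Its sham plates stood at 824, 1096, 1054 and 627 CPM, the IR day 1 plates at 519 to 791, the IR day 3 plates at 628 to 755, the MI plates at 636 to 946 and the IR day 14 plates at 341 and 1201. Loxl2 stood at 412, 469.7, 436 and 274 CPM on sham plates, at 998, 411, 203, 238 and 147 at IR day 1 and at 346, 726, 969 and 586 at IR day 3. Its MI plates stood at 696, 533, 735, 799 and 874 CPM, all above the sham plates, and its IR day 14 plates at 393 and 554. The IR day 1 plates of Loxl2 spread most, and the highest of them lay above every MI plate.

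**Figure D3:**
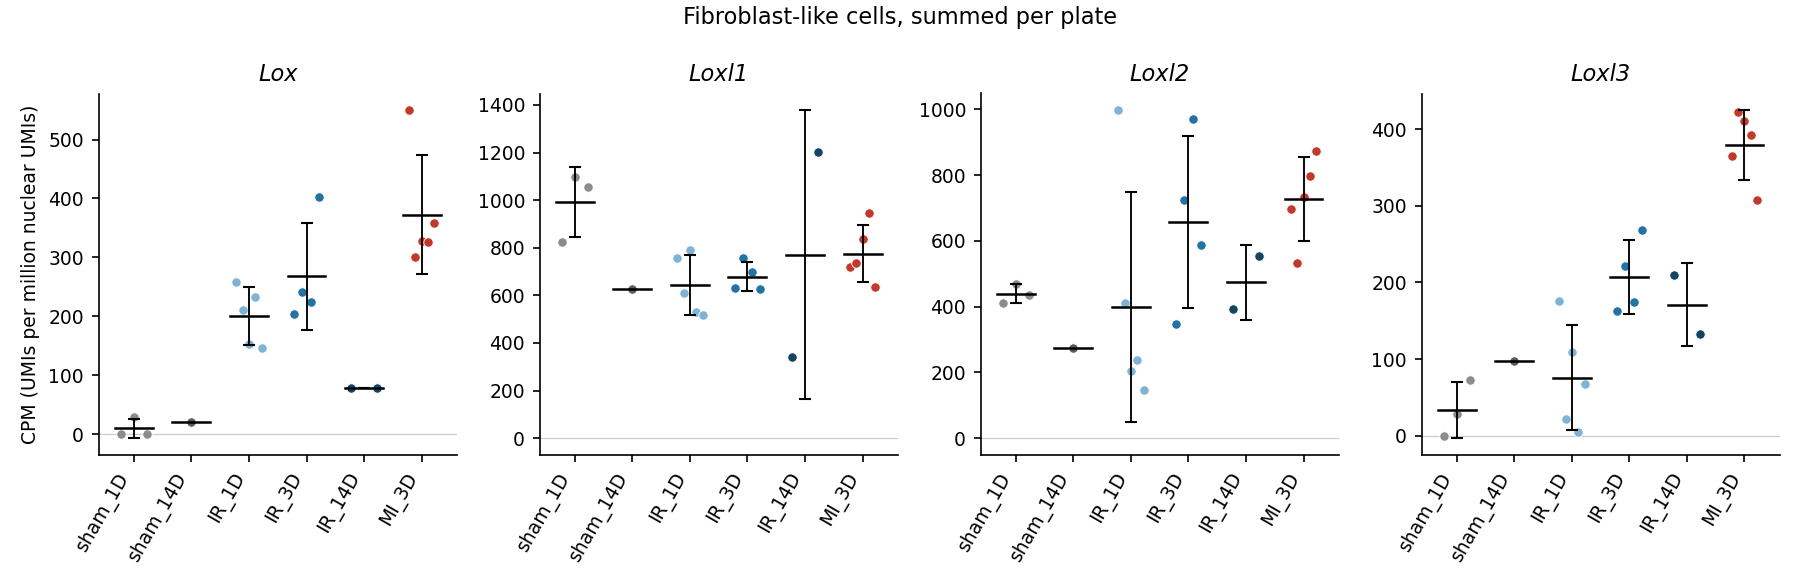
Level of each member in fibroblast-like cells (CPM) by group, with points for plates of at least 5 such cells, a line for the mean and bars for the SD. Lox is at 0 to 28.5 CPM on sham plates and at 147 CPM or more on all plates of IR day 1, IR day 3 and MI day 3, while Loxl1 overlaps between all groups.

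Against both sham groups, 1 member, Lox, was higher in IR day 1 fibroblast-like cells, and 13.1% of the 6593 genes tested were called higher. Lox differed by 3.65 on the log2 scale (SE 0.663, adjusted p = 4.64e-04, edgeR) and its pooled count ratio was 12.6 (4.21 to 61.6). Loxl1 at -0.17, Loxl2 at 0.36 and Loxl3 at 0.64 (SE 0.740, adjusted p = 0.576) did not pass. This comparison, like that of IR day 14, was added after the values were seen.

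Lox was again the 1 member called higher at IR day 3, where 1.11% of genes were. It differed by 4.23 (SE 0.655, adjusted p = 0.00185), with a pooled count ratio of 16.8 (5.63 to 82.2). Loxl3 at 2.21 (SE 0.698, adjusted p = 0.109), Loxl2 at 1.14 (adjusted p = 0.290) and Loxl1 at 0.02 (SE 0.369, adjusted p = 0.994) missed the threshold. Pooled Loxl3 counts gave a ratio of 4.502 (2.29 to 10.1).

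At MI day 3, Lox and Loxl3 were higher and 11.7% of genes were called higher. Lox differed by 4.57 (SE 0.621, adjusted p = 1.91e-05, pooled count ratio 22.9, 7.83 to 111). Loxl3 differed by 2.94 (SE 0.649, adjusted p = 0.00294, pooled count ratio 7.65, 4.03 to 16.8). Loxl2 at 1.24 (SE 0.505, adjusted p = 0.0892) and Loxl1 at 0.15 (SE 0.348, adjusted p = 0.805) did not pass.

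At IR day 14 none of the members passed against sham, where 0.0455% of genes, 3 of 6593, were called higher and 626 had an unadjusted p under 0.05. Lox stood at 2.27 (SE 0.883, adjusted p = 0.441), with a pooled count ratio of 4.70 (1.29 to 25.7), and Loxl3 at 1.61 (adjusted p = 0.557). Of the 3 sham Lox UMIs, 2 came from sham day 1 replicate 3. Without that plate the fitted Lox values were 6.53 at IR day 1, 6.99 at IR day 3, 7.46 at MI day 3 and 5.04 at IR day 14.

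The median gene of these fits also lay above 0 against sham, by 0.36 at IR day 1, 0.41 at IR day 3, 0.43 at MI and 0.20 at IR day 14. Relative to that median, Lox stood at 3.29, 3.82, 4.14 and 2.07 and Loxl3 at 0.28, 1.80, 2.51 and 1.405. Loxl1 stood at -0.53, -0.40, -0.28 and -0.01. With RLE scaling the medians were 0.22, 0.23, 0.14 and 0.21, and Loxl1 changed sign at IR day 3 (-0.15) and at MI (-0.15). It lay below the median gene under both scalings and passed in neither.

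From IR day 1 to IR day 3, 1 member, Loxl3, was higher in fibroblast-like cells, by 1.57 on the log2 scale (SE 0.468, adjusted p = 0.0174, edgeR), where 12.2% of genes were called higher. Lox at 0.58 (adjusted p = 0.201), Loxl1 at 0.18 (adjusted p = 0.716) and Loxl2 at 0.77 (adjusted p = 0.180) did not pass. The Loxl3 call was lost without IR day 1 replicate 5 (1.26, adjusted p = 0.0553), IR day 3 replicate 4 (1.51, adjusted p = 0.0570) or IR day 3 replicate 7 (1.35, adjusted p = 0.0723), with the replicate block (1.86, adjusted p = 0.0780) and at 10 or more cells a plate (0.42, adjusted p = 0.593). MI against IR day 1 was not tested. Without IR day 1 replicate 3, the plate with the highest Loxl2, Loxl2 passed as well (1.51, adjusted p = 0.00203).

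From IR day 3 to IR day 14, no member was called lower, and 0.425% of genes were. Lox missed the threshold at -1.96 (SE 0.530, adjusted p = 0.0681), and passed in DESeq2 (-1.80, adjusted p = 0.0340), without the gene filter (-2.07, adjusted p = 0.0309), with the family among the clustering genes (-2.05, adjusted p = 0.0473) and without IR day 3 replicate 3 (-2.09, adjusted p = 0.0393). Loxl1 stood at 0.18, Loxl2 at -0.55 and Loxl3 at -0.60. At an unadjusted p under 0.05, 1138 genes differed.

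Between MI and IR day 3, none of the members was called higher in fibroblast-like cells, where 4.5% of genes were, in contrast to the 3 called in whole plates. The log2 fold change was 0.34 for Lox (SE 0.304, adjusted p = 0.536), 0.14 for Loxl1 (SE 0.308, adjusted p = 0.829), 0.10 for Loxl2 (SE 0.402, adjusted p = 0.912) and 0.73 for Loxl3 (SE 0.408, adjusted p = 0.280). At an unadjusted p under 0.05, 1639 genes differed, and DESeq2 called no member either. Whether the differences in whole plates and in fibroblast-like cells themselves differ was not tested.

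**Figure D4:**
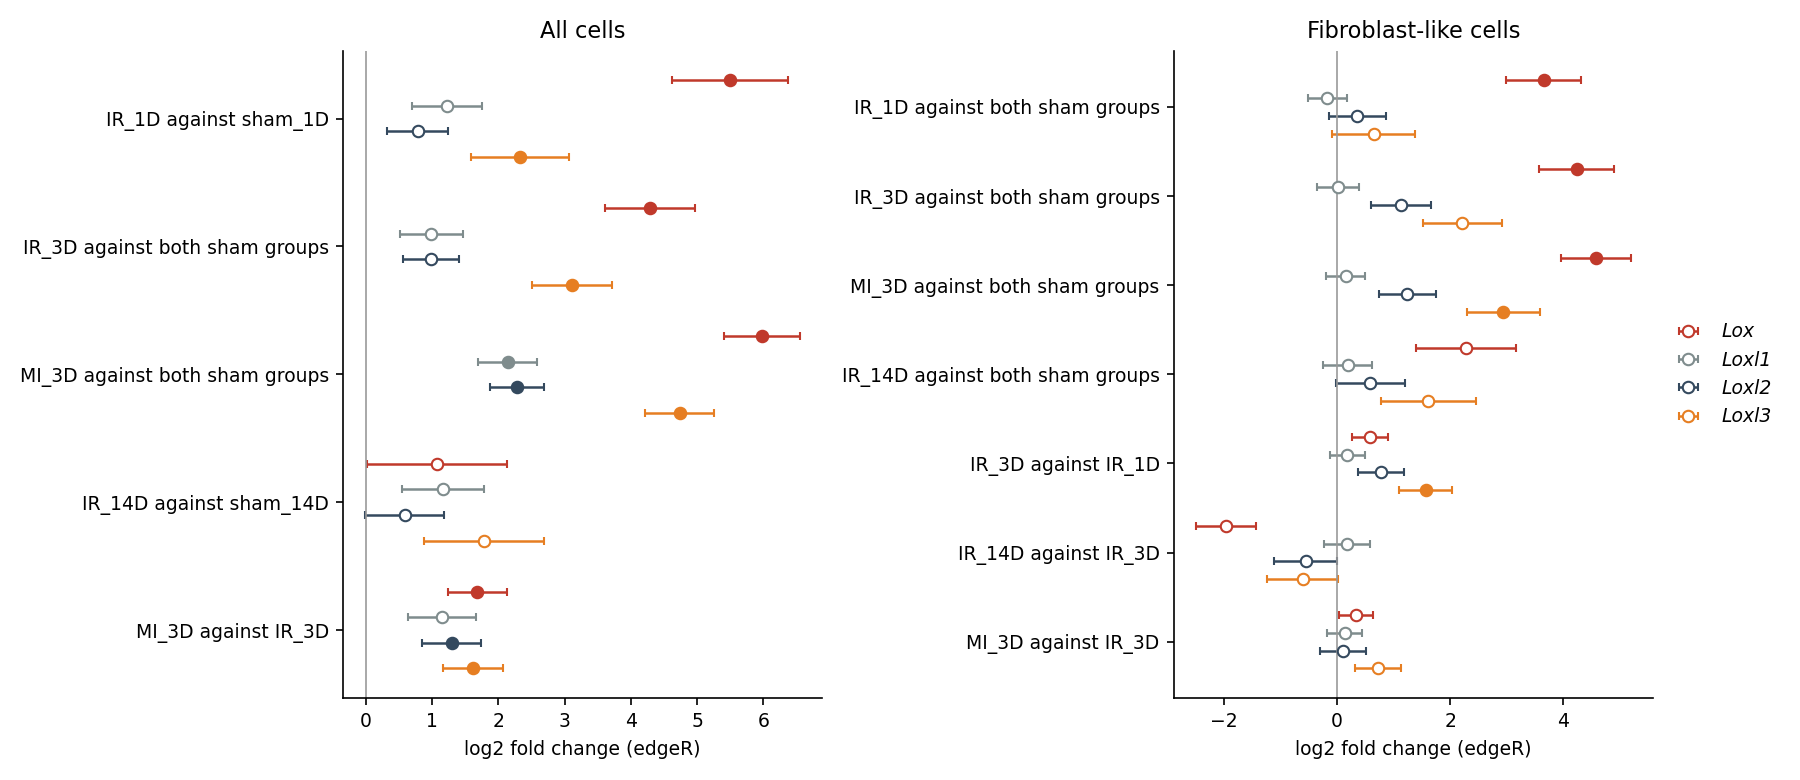
Log2 fold change of each member with its SE, in the sum over all wells (left) and in fibroblast-like cells (right), filled where the adjusted p was under 0.05. All 4 members are filled for MI against sham over all wells, and Lox and Loxl3 in fibroblast-like cells.

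In the family's make-up, Loxl1 had a smaller share and Lox and Loxl3 a larger one at MI than in sham. SORT-seq counts 1 UMI per captured molecule whatever the transcript's length, so each fibroblast-like plate's UMIs of the 4 members were set to sum to 100%, which makes the 4 shares dependent. On sham plates Lox made up 0.919% ± 1.06 (SD, n = 4), Loxl1 65.8% ± 2.87, Loxl2 29.3% and Loxl3 4.01% ± 4.20. On MI plates the shares were 16.5% ± 4.14 (SD, n = 5), 34.3% ± 4.04, 32.2% and 16.9% ± 2.71. The shares of Lox, Loxl1 and Loxl3 did not overlap between these groups (exact permutation test, two-sided, p = 0.00794 each, the smallest that 126 arrangements allow, 0.0397 after Benjamini-Hochberg adjustment over 20 tests). The Loxl2 share overlapped between the groups and differed by 2.92 points (p = 0.373, exact permutation test). Plates were permuted as if independent, and as some MI plates share a mouse, the permutation p-values with MI may be too small.

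The Lox share at IR day 1 was already 16.1% ± 4.58 (SD, n = 5; exact permutation p = 0.00794, adjusted 0.0397), while Loxl3 stood at 5.34% (exact permutation p = 0.619). Loxl1 stood at 51.6% ± 11.0 there (34.6 to 63.0, overlapping sham; exact permutation p = 0.0397, adjusted 0.0882). On the 2 IR day 14 plates Loxl1 made up 33.3 and 61.1% and Lox 7.69 and 3.97%. The shares at IR day 3 were 14.9% ± 4.63 for Lox, 38.2% ± 6.35 for Loxl1 and 11.5% ± 2.40 for Loxl3 (SD, n = 4). For Lox and Loxl1 the exact permutation p was 0.0286, the smallest that 70 arrangements allow, which adjusted to 0.0794. The Loxl3 share was 6.20 points higher at IR day 3 than at IR day 1 (exact permutation p = 0.0317, adjusted 0.0794) and 5.39 points higher at MI than at IR day 3 (exact permutation p = 0.0238, adjusted 0.0794), neither of which passed the adjustment. The sum of the 4 members stood at 1474 ± 209 CPM (SD, n = 3) at sham day 1, 1019 on the sham day 14 plate, 1317 ± 514 at IR day 1 (n = 5), 1808 ± 319 at IR day 3 (n = 4), 1494 ± 667 at IR day 14 (n = 2) and 2254 ± 179 at MI (n = 5).

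**Figure D5:**
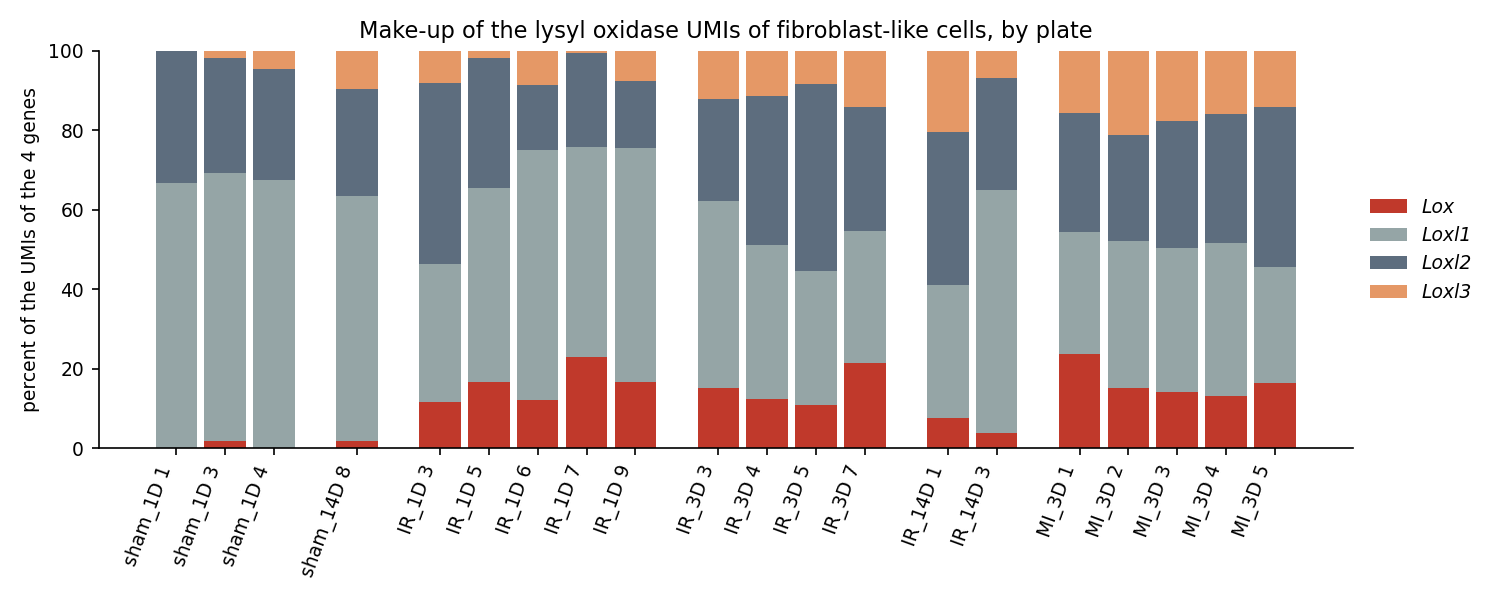
Share of each member in the family's UMIs (percent) on each plate of fibroblast-like cells, stacked to 100. Loxl1 takes a mean of 65.8% on sham plates and 34.3% on MI plates, and Lox a mean of 0.919% and 16.5%.

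Fibroblast-like cells fell into 3 clusters, and MI and sham lay mostly in different ones. Cluster 5 (211 cells) was led by Timp1, Tnc, Col8a1 and Cxcl5, with Lox itself among its top 10 genes, and held 131 of the 132 MI cells and 42 of 52 IR day 1 cells. Cluster 14 (82 cells) was led by Pi16, Scara5 and Gsn, genes of resting adventitial fibroblasts, and held all sham fibroblast-like cells but 1 and 15 of 21 IR day 14 cells. The IR day 3 cells were split, with 36 in cluster 5, 20 in cluster 14 and 20 in the third cluster. The clusters were made from the same cells, so their levels are a description.

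In cluster 5, Lox stood at 220 CPM in 42 IR day 1 cells, 300.1 in 36 IR day 3 cells and 381 in 131 MI cells, and Loxl3 at 94.3, 292 and 382. Loxl1 stood at 724, 680.3 and 770 CPM there. In cluster 14, Lox stood at 14.9 CPM in 23 sham day 1 cells, 11.2 in 13 sham day 14 cells, 44.6 in 10 IR day 1 cells, 222 in 20 IR day 3 cells and 83.2 in 15 IR day 14 cells. The IR day 3 value came from 25 UMIs on 2 plates, at 261 and 240 CPM, while 2 other plates were at 0. Loxl1 in cluster 14 stood between 593 and 1131 CPM in every group.

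The check of the label differed between groups. The median over cells of the fibroblast marker list, per 10000 UMIs, was 612 to 636 in sham, 656 at IR day 14, 682 at IR day 3, 311 at MI and 159 at IR day 1. The cardiomyocyte list stood at 18.4 and 36.2 in fibroblast-like cells of the sham groups, 39.4 at IR day 3, 25.9 at IR day 14, 1.00 at IR day 1 and 0.935 at MI. The part of this in the members' values was not tested.

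Within the MI cells the members varied together to different degrees. Over the cells of each of 5 plates the median Pearson correlation was 0.522 (0.470 to 0.695) for Loxl1 with Loxl3 and between 0.244 and 0.340 for the other 5 pairs. It was above 0 on every plate for Lox with Loxl1 (0.047 to 0.486) and Lox with Loxl3 (0.151 to 0.567). The 3 pairs with Loxl2 ran from below 0 to above it, from -0.146 to 0.561 with Lox, -0.234 to 0.617 with Loxl1 and -0.204 to 0.596 with Loxl3. Cells of a plate share a library and differ in depth, so these values are a description. A single cell of MI replicate 1, with 233033 UMIs and Lox at 1601 CPM, gave 373 of the 2677 Lox UMIs of MI. Without it replicate 1 stood at 383.6 CPM instead of 550.4, and the MI mean was 339 ± 32.1 (SD, n = 5).

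Outside the fibroblasts, Loxl2 UMIs were also counted in endothelial-like cells, the lining of the vessels. Its plates stood at 21.3, 31.8, 54.5 and 32.9 CPM at sham day 1, 11.0 and 13.6 at sham day 14, 80.1 and 69.2 at IR day 1, 18.3 at IR day 3, 24.5, 15.5 and 47.3 at IR day 14 and 81.1, 87.0, 58.3 and 98.1 at MI. All MI and IR day 1 plates lay above all sham plates. The plate values rest on 1 to 34 UMIs each, and on MI replicate 2 one cell gave 22 UMIs, without which the plate fell from 87.0 to 25.4 CPM.

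No member passed the gene filter in endothelial-like cells. With the minimum count of that filter at 5, Loxl2 was higher at MI than in both sham groups by 1.90 on the log2 scale (SE 0.494, adjusted p = 0.00467, edgeR), where 12.3% of 7963 genes were called higher. With the family among the clustering genes, which put 410 cells in the class instead of 337, it passed the filter and was higher by 1.75 (adjusted p = 0.00168). At IR day 1 against day 1 sham it stood at 0.89 (adjusted p = 0.532). After thinning to 1000 UMIs, Loxl2 was seen in 11.7% of 57 MI endothelial-like cells, 13.1% of 49 neutrophil-like, 11.9% of 19 cardiomyocyte-like and 3.50% of 280 macrophage-like cells of that group. In pooled counts Loxl2 stood at 87.7 CPM in MI endothelial-like, 167 in neutrophil-like, 39.2 in cardiomyocyte-like and 31.6 in macrophage-like cells. The endothelial-like share was no higher than that of the 19 cardiomyocyte-like cells while its pooled level was, so no order is read from the shares. Per 1000 UMIs of the fibroblast marker list in the same cells, Loxl2 stood at 55.1 (45.0 to 66.8) in endothelial-like and 21.9 in fibroblast-like cells at MI, and at 143 (101 to 198) and 25.6 at IR day 1. The same ratio at MI was 29.3 in neutrophil-like, 36.3 in cardiomyocyte-like and 21.5 in macrophage-like cells. At IR day 1 it was 28.9, 32.3 and 52.1 (33.4 to 77.5) in the same order. Whether RNA of other cells gave part of these counts was not tested.

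In macrophage-like cells, phagocytes that clear the infarct, the members were low. At MI they stood at 4.63 CPM for Lox, 21.6 for Loxl1, 31.6 for Loxl2 and 12.4 for Loxl3. At IR day 3 Loxl3 stood at 16.7 CPM from 38 UMIs, of which 28 came from replicate 4 and 9 from replicate 7, while replicates 3 and 5 were at 0. Against the UMIs of the fibroblast marker list in the same cells this was 11.8 Loxl3 UMIs per 1000, compared with 3.25 per 1000 in fibroblast-like cells of that group. In the other injured groups of days 1 and 3 the ratio in macrophage-like cells was below that in fibroblast-like cells, at 8.39 against 11.7 at MI and at 4.34 (2 UMIs) against 4.86 at IR day 1. Whether free RNA of other cells gave these counts was not tested.

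The genes that the enzymes work with moved in their own patterns in fibroblast-like cells. The substrate list held the collagens Col1a1, Col1a2, Col3a1, Col5a1 and Col5a2 and elastin (Eln), and the first 3 collagens were also used to name the fibroblasts. Counts for this and the following lists are to be read against all 6593 genes tested, of which 13.1% were higher and 7.36% lower than in sham at IR day 1 (median log2 fold change 0.36), 1.11% and 0.501% at IR day 3 (median 0.41) and 11.7% and 5.85% at MI (median 0.43). At IR day 3, 2 of 6 substrates were higher than in sham (median 2.04): Col1a1 by 3.00 (adjusted p = 0.0149) and Col5a2 by 2.00 (adjusted p = 0.0271). At MI 2 were higher, Col1a1 by 2.04 (adjusted p = 0.0165) and Col5a2 by 1.61 (adjusted p = 0.0153), and Eln was lower by a log2 fold change of -2.93 (adjusted p = 0.0296). None was higher at IR day 1, and Eln was lower at -4.96 (adjusted p = 0.00372). Sham day 14 replicate 8 gave 131 of the 168 sham Eln UMIs.

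From IR day 1 to IR day 3 all 6 substrates rose, with a median of 3.46 against 0.05 over all genes, 12.2% of which were called higher. Col1a1 rose by 3.56 (adjusted p = 2.55e-05), Col1a2 by 3.69, Col3a1 by 3.36 and Eln by 5.18 (adjusted p = 0.00165). Where Lox passed against sham at IR day 1, none of the collagens on the list was called higher (median of the list -0.92). The difference between these patterns was not tested.

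Of the proteins that activate or dock lysyl oxidases, 10 of 13 were tested in fibroblast-like cells. At MI 4 were higher and 1 lower than in sham (median 1.31, or 1.14 with genes at 0 in sham set to their bound), at IR day 3, 3 and 0 (median 1.14), and at IR day 1, 2 and 2 (median -0.08). Postn, the matricellular protein that presents Bmp1 to Lox, was higher by 5.02 at IR day 3 (adjusted p = 0.00388) and by 2.49 at IR day 1 (adjusted p = 0.0173). Fn1, the fibronectin that binds the proenzyme, was higher by 3.05 at IR day 3 (adjusted p = 0.0325) and 2.20 at MI (adjusted p = 0.0276), and Thbs1 by 4.99 at IR day 1 (adjusted p = 2.18e-04). Fbln5, which tethers Loxl1 to elastic fibres, was lower at IR day 1 (-2.85, adjusted p = 0.00825) and at MI (-3.01, adjusted p = 0.00235).

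The elastic fibre list of 13 genes had 0 higher and 6 lower at IR day 1 (median -1.69, against 0.36 over all genes, 7.36% of which were lower), 0 and 1 at IR day 3 (median 0.27, against 0.41) and 2 and 4 at MI (median -0.75, against 0.43, with 5.85% lower). Fbln1 was lower by a log2 fold change of -3.32 at IR day 1 (adjusted p = 3.43e-05) and -3.37 at MI (adjusted p = 2.3e-06). Ltbp4, which scaffolds elastin deposition, was lower at IR day 3 (-1.84, adjusted p = 0.0249) and at MI (-3.22, adjusted p = 3.31e-06). Emilin1 was higher at MI by 1.85 (adjusted p = 0.0102). From IR day 1 to IR day 3, 7 of the 13 rose, with Mfap4 at 4.38 (adjusted p = 6.07e-06), and at MI 7 were lower than at IR day 3, with Mfap4 at -2.65 (adjusted p = 6.91e-05), where 6.76% of all genes were lower.

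Of 11 genes that hydroxylate the lysines and prolines of collagen or help it fold, 6 were higher at MI than in sham (median 1.79, against 0.43 over all genes). Fkbp10 was higher by 1.97 (adjusted p = 0.00629), P4ha1 by 1.80 (adjusted p = 0.0081) and Plod2, a lysyl hydroxylase, by 1.79 (adjusted p = 0.0267). Of the 11, 1 passed at IR day 3 and none at IR day 1. P4ha3 had 0 UMIs in sham fibroblast-like cells and was at least 9.34-fold higher at IR day 3 and at least 4.35-fold higher at MI, against a floor of 3 counts over the group. Of the 4 copper supply genes, 1 was higher in each of these 3 comparisons.

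Of 8 upstream signals, 7 were tested, and 5 were higher and 1 lower at IR day 1 (median 2.83, against 0.36 over all genes, 13.1% of which were higher), 1 and 0 at IR day 3 (median 1.44, against 0.41, with 1.11% higher) and 3 and 0 at MI (median 1.22, against 0.43, with 11.7% higher). Ctgf was higher by 3.41 at IR day 1 (adjusted p = 0.00191) and 2.02 at MI (adjusted p = 0.0397), and Vegfa, a hypoxia target, by 2.83 at IR day 1 (adjusted p = 0.00517).

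All 4 resting fibroblast genes were lower at IR day 1 (median -3.46) and at MI (median -6.63), and 2 of 4 at IR day 3 (median -2.48). Of 5 activated fibroblast genes, 1 was higher and 1 lower at IR day 1, 3 and 0 at IR day 3 and 4 and 1 at MI. At IR day 14 no gene of these 8 lists passed against sham.

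Genes whose levels were most like a member's were ranked over 22 profiles of class and group, among 11835 genes, by Pearson's correlation of log2(CPM + 10). For Lox they were Twist1 (0.9504), a transcription factor of mesenchymal cells, Cthrc1 (0.947), Col12a1 (0.945), Stbd1 (0.925) and Slc1a4 (0.921). For Loxl3 they were Cthrc1 (0.946), Srpx2 (0.942), Col12a1 (0.940), Wisp2 (0.939) and Twist1 (0.937). For Loxl1 they were Srpx2 (0.977), Tmem45a (0.967), Adamts2 (0.965), Slit3 (0.963) and Medag (0.962), and for Loxl2 Slit3 (0.957), Medag (0.956), Srpx2 (0.946), Col5a2 (0.940) and Col6a3 (0.937). Between members the value was 0.926 for Loxl1 with Loxl2, 0.901 for Lox with Loxl3 and 0.842 for Lox with Loxl2. Profiles of one class share libraries, and any gene of fibroblasts scores high by this measure.

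The remaining gene of the family, Loxl4, had 215 UMIs in all and did not pass the gene filter. With a minimum count of 5 over all cells it was higher at MI than in both sham groups by 3.296 (adjusted p = 0.00409, edgeR) and stood at 2.80 at IR day 3 (adjusted p = 0.0557).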

How the data were processed

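UMI counts per gene and well were deposited by the authors as 1 table per plate, after mapping with BWA to GRCm38 (mm10). Versions, the annotation and the strand setting were not given in the sources used here. With UMIs of 6 bases a count tops out at 4096. Wells of at least 1000 UMIs from nuclear genes were kept, spike-ins and mitochondrial genes were left out, and cells were clustered with scanpy 1.11.5 (2000 variable genes, 30 components, 15 neighbours, resolution 1, 18 clusters) and named from marker genes as X-like. Doublets were not called. Counts were summed per plate over all wells (plates of at least 10 wells), fibroblast-like cells (at least 5) and endothelial-like cells (at least 10), and tested with edgeR 4.0.16 (quasi-likelihood F test, filterByExpr, TMM, all groups in 1 fit, Benjamini-Hochberg adjustment over all genes tested, threshold 0.05) in R 4.3.3. Both sham groups were weighted equally where both were used. The steps were tested on simulated data. Alternatives were DESeq2 1.42.0, RLE scaling, other gene, cell and UMI minimums, the family among the clustering genes, leaving out Rn45s, plates left out in turn and the replicate number as a block. Comparisons of fibroblast-like cells at IR day 1 and IR day 14 with sham, the shares of the family's UMIs and the fit without plates that lack cardiomyocyte-like wells were added after the values were seen. Pooled levels, detection and clusters leave out 45 wells of sham day 14 replicate 2 and 9 other wells whose counts matched wells of another plate.

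The members and lists were chosen with earlier results of these data known. Named genes of a list were those with the smallest adjusted p, up to 4 per comparison, and genes like a member the 5 with the highest correlation. Genome positions came from the GENCODE M21 annotation of GRCm38. Intervals and floors cover counting error only.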

Additional observations from a re-analysis of the deposited data

Results flagged for a closer look

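Of 39 groups of 4 to 10 plates examined for a plate far from the others, 5 had one. The gap to the next plate, over the range, was set against critical values made for normally distributed values. A group with 1 plate above 0 and the others at 0 is always flagged by this rule. No rate by chance is therefore known for these sparse counts. In the sum over all cells, Lox at IR day 1 replicate 2 stood at 146.9 CPM (41 UMIs), against 82.1 on the next plate. Lox at sham day 14 replicate 8 stood at 10.9 CPM (3 UMIs), against 4.12 on the next, and at sham day 1 replicate 3 it stood at 2.81 CPM (2 UMIs), with the other 3 plates at 0. In endothelial-like cells, Loxl3 at sham day 1 replicate 4 stood at 11.0 CPM from 1 UMI, with the others at 0. In fibroblast-like cells, Lox at MI replicate 1 stood at 550.4 CPM (936 UMIs), against 359 on the next plate.

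The change against sham differed between MI day 3 and IR day 3 in the sum over all cells for 3 members, by 1.68 on the log2 scale for Lox (adjusted p = 0.00588, edgeR), 1.30 for Loxl2 (adjusted p = 0.0395) and 1.62 for Loxl3 (adjusted p = 0.0103). As both changes share the sham plates, this difference equals MI against IR day 3.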

How the results depend on the processing

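Of the members' log2 fold changes, 531 of those under another setting kept their direction and side of the threshold, 17 reversed, 9 newly passed and 7 no longer did. With 1 plate left out 445 kept both, 13 reversed, 7 newly passed and 11 no longer did. The share differences kept their direction in 170 cases and reversed in 6. Pooled levels of the members in fibroblast-like cells stayed within their spread at clustering resolutions 0.5 and 2. With the family among the clustering genes the class held 332 cells instead of 318, with Lox at 339.5 CPM pooled (340 as reported). The cause of the changes below was not tested.

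The number of members called over all cells at MI against IR day 3 was 1 in DESeq2 (3 as reported). In fibroblast-like cells it was 0 at IR day 3 against IR day 1 with the replicate block and at 10 or more cells (1 as reported), 1 at IR day 14 against IR day 3 without the gene filter, in DESeq2 and with the family among the clustering genes (0), and 2 at IR day 3 against sham without the filter and at 1 or more cells (1). In endothelial-like cells at MI against sham it was 1 without the filter, with a minimum count of 5, at 5 or more cells and with the family among the clustering genes (0). With 1 plate left out it ranged from 0 to 2 for IR day 3 against IR day 1 and from 0 to 1 for IR day 14 against IR day 3. Those newly passing were Loxl3 at IR day 3 against sham (2.30 without the filter, adjusted p = 0.00748, 2.71 at 1 or more cells), Loxl2 at MI against sham (1.496 without the filter, adjusted p = 0.00744, 1.42 at 1 or more cells) and, over all cells at IR day 3, Loxl1 without sham day 14 replicate 8 (1.33, adjusted p = 0.0290) and Loxl2 at 2000 or more UMIs and without IR day 3 replicate 6, sham day 14 replicate 4 or sham day 1 replicate 4. Others are given beside their results.

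Values not called that reversed in fibroblast-like cells were as follows. At MI against IR day 3, Loxl1 was -0.0080 in DESeq2, and Loxl2 was -0.026 with RLE, -0.023 in DESeq2 and -0.10 at the lowest of a range up to 0.33 with a plate left out. At IR day 3 against IR day 1, Loxl1 was -0.13 at 1 or more and -0.13 at 10 or more cells, and Loxl2 -0.73 at 10 or more. At IR day 3 against sham, Loxl1 was -0.15 with RLE, -0.33 with the replicate block, -0.15 in DESeq2, -0.045 at 2000 or more UMIs, -0.047 without Rn45s and -0.085 to 0.11 with a plate left out. At MI against sham it was -0.15 with RLE, -0.035 with the block and -0.16 in DESeq2. At IR day 1 against sham, Loxl1 was 0.00017 without the filter, 0.38 at 1 or more cells and -0.24 to 0.048 with a plate left out, Loxl2 -0.36 to 0.59 and Loxl3 -0.045 to 1.00. At IR day 14, Loxl1 was -0.17 with the block and -1.35 to 0.89 with a plate left out against sham, and -1.36 to 0.85 against IR day 3. Over all cells at IR day 14, without replicate 3, Lox was -0.026, Loxl1 -0.22 and Loxl2 -0.047 (highest 2.03, 1.85 and 0.96). With a plate left out, the difference in share ranged from -6.97 to 0.385 points for Loxl2 at IR day 1 against sham, from -0.180 to 3.73 for Lox and -6.27 to 0.802 for Loxl2 at MI against IR day 3, and from -3.299 to 0.585 for Lox at IR day 3 against IR day 1.

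Counts of genes called in fibroblast-like cells moved by over 1.5 times. MI against IR day 3 gave 743 (block 189, no filter 1241, 1 or more cells 260, 10 or more 1669), IR day 3 against IR day 1 1541 (block 446, 1 or more cells 777, 10 or more 254), IR day 14 against IR day 3 50 (0 with the block to 268 without the filter), IR day 3 against sham 106 (18 with the block to 295 without the filter), MI against sham 1155 (block 603) and IR day 1 against sham 1349 (block 284). In endothelial-like cells IR day 1 against sham gave 228 (530 with the family among the clustering genes). With RLE the calls split into 454 higher and 502 lower at MI against sham (769 and 386 as reported), 48 and 39 at IR day 3 against sham (73 and 33), 734 and 588 at IR day 1 against sham (864 and 485), 200 and 518 at MI against IR day 3 (297 and 446), and 55 and 28 at IR day 14 against IR day 3 (22 and 28).

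For plates with the same replicate number the median correlation was -0.00769 over 59 pairs in all cells (-0.117 to 0.368, 10 above 0.1). It was 0.00472 over 20 pairs in fibroblast-like cells (0 above 0.1) and 0.0214 over 16 in endothelial-like cells (2 above 0.1). The main fits did not pair plates by number. These medians cannot tell whether single pairs share a mouse or a batch. Where leaving out a plate left a group with 1, that plate was assumed to vary like the others. Sham fibroblast-like cells on tested plates held 180382 UMIs, so Lox there, at 3 UMIs, is known only within a wide interval.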

Other observations

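Over all cells of a plate, 32.7% of 9328 genes were higher and 23.4% lower than in sham at MI day 3, 18.2% and 11.4% at IR day 3 and 19.7% and 16.9% at IR day 1, and the counts below are to be read against these shares. Of the lists, 5 of 6 substrates were higher than in both sham groups at IR day 3 (median log2 fold change 3.13, against 0.10 over all genes) and 5 at MI day 3 (median 3.33, against 0.20), and 2 at IR day 1 against day 1 sham (median 1.82, against 0.09). Of 11 genes of collagen hydroxylation and folding, 9 were higher and 0 lower at MI (median 1.52) and 4 and 0 at IR day 3 (median 0.92). At IR day 1, 2 were higher and 1 lower (median 0.69), a share higher near that over all genes. The copper supply genes were higher for 3 of 4 at MI and at IR day 3 and for 2 of 4 at IR day 1. Between MI and IR day 3, none of the substrates was higher and 1, Eln, was lower, with a list median of 0.14 against 0.03 over all genes, 7.73% of which were higher and 9.79% lower. At IR day 14 no gene of these lists passed against day 14 sham. These tests are edgeR's, with Benjamini-Hochberg adjustment, and the part of the share of fibroblast-like cells given above was not tested.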
